A study of Arabidopsis thaliana with 6 samples.

Results

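The 10 nuclear genes examined here encode core subunits of photosystem I (PSI): PSAD-1 (AT4G02770), PSAD-2 (AT1G03130), PSAE-1 (AT4G28750), PSAE-2 (AT2G20260), PSAF (AT1G31330), PSAG (AT1G55670), PSAH-1 (AT3G16140), PSAH-2 (AT1G52230), PSAK (AT1G30380) and PSAL (AT4G12800). They were taken by gene ID from the 33331 genes of a table of RNA immunoprecipitation followed by sequencing (RIP-seq), and all 10 were found. In RIP-seq a tagged protein is precipitated and the RNAs bound to it or held near it are sequenced. The protein was AtGRP7, a glycine-rich RNA-binding protein of Arabidopsis thaliana under control of the circadian clock. All plants carried AtGRP7::AtGRP7-GFP, the fusion with green fluorescent protein driven by the AtGRP7 promoter, in the grp7-1 mutant, and aerial tissue was taken. Before the move to continuous light (LL) they had 16 days of 12 h light alternating with 12 h dark, and they were fixed with formaldehyde after 36 h, the subjective dusk (LL36, 3 libraries), or after 24 h, the subjective morning (LL24, 3 libraries). Input RNA and wild-type plants were not used here, so the amount of a transcript and its binding by AtGRP7 cannot be told apart, and in whole aerial tissue neither can fewer cells of a type and less RNA per cell.

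PSI is the thylakoid complex that uses light to move electrons from plastocyanin, in the thylakoid lumen, to ferredoxin, in the stroma. Its reaction centre proteins are encoded in the chloroplast genome, whereas the subunits described here are made in the cytosol from nuclear transcripts and imported. In Arabidopsis, PSAD, PSAE and PSAH each have a pair of genes, and the other subunits described here have 1 gene each. AtGRP7 binds RNA through an RNA recognition motif, and the motifs described for its binding sites are rich in U and C.

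The paralogues are close in sequence but can be told apart by the reads. In an alignment of the coding regions of the TAIR10.1 annotation, 88.1% of the bases and 95.1% of the residues were identical between PSAD-1 and PSAD-2, 81.4% and 77.5% between PSAE-1 and PSAE-2, and 87.0% and 91.7% between PSAH-1 and PSAH-2. Over the first 50 residues, the end that holds the transit peptide for import, identity was 83.7% for the PSAD pair, 66% for the PSAE pair and 80% for the PSAH pair, against 98.7%, 83.7% and 97.9% over the rest. The longest run of bases that a pair shares was 35 nt for PSAD, 22 nt for PSAE and 30 nt for PSAH, all in the coding region and all shorter than the 50 nt that a trimmed read had to keep, so that no pair shared a stretch of 50 nt. These runs are shown, in the RNA sense as DNA letters, because they are where a read is least able to tell the genes apart. For PSAD the middle 30 bases are given.
PSAD-1 and PSAD-2 shared: gtacaagatcacttaccagttttacagagt
PSAE-1 and PSAE-2 shared: gtgtctttcttgccgatgagaa
PSAH-1 and PSAH-2 shared: tgtggtggctaagtatggagacaaaagtgt

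The stretches of 30 coding bases that differed most, with the differing bases in capitals, show by contrast what separates the genes. In the PSAD pair 8 of 30 bases differed, in the PSAE pair 14 and in the PSAH pair 8. Positions are counted from the first base of the start codon, and the stretches began at coding base 403 of PSAD-1, 391 of PSAD-2, 199 of PSAE-1, 208 of PSAE-2, and 19 of both PSAH genes.
PSAD-1: tgtttAgctttGggGacAaggCtTagAtcC
PSAD-2: tgtttGgctttAggTacGaggTtGagGtcA
PSAE-1: gATGGagCtAcTgccAcCaaACcCaaGccA
PSAE-2: gCGAAagTtCcGgccGcTaaGGcTaaAccT
PSAH-1: GtcgccgcTgtGAaaccAtcCgccgccAtA
PSAH-2: AtcgccgcCgtACaaccTtcTgccgccGtG

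Overlap with genes on the other strand was a larger uncertainty than the paralogues. The sources used here do not say whether strand was recorded or used, so reads of a gene and of a partner on the opposite strand may have been mixed. Of the 100-nt stretches of the PSAG transcript, 55.8% were also in AT1G55673, and of those of PSAE-1, 24% were also in AT4G28755. Neither partner was among the listed genes, so how much its reads may add to PSAG or PSAE-1 is not known. For PSAH-1, 47% were shared with AT3G16130, whose scaled TPM was 3.70, 3.58 and 5.06 at LL36 and 0.993, 4.35 and 3.41 at LL24, so that it reached between 3.78% and 22.1% of the PSAH-1 level. For PSAH-2, 12.4% were shared with AT1G52240, which reached at most 0.824% of the PSAH-2 level. In TAIR10.1 the PSAD-1, PSAF, PSAK and PSAL genes overlapped no other gene, and PSAD-2 and PSAE-2 shared no 100-nt stretch with one.

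The values are TPM, relative transcript numbers corrected for transcript length, so that levels of different genes can be set side by side. TPM keeps no read depth, and errors given here therefore come from the spread between libraries. An SD is that of the 3 libraries of a time point. A standard error is from the limma fit to both time points, which also draws on the spread of all tested genes. The listed genes summed to between 9.59% and 16.6% of the 1000000 TPM of a library. LL36 replicate 3 stood apart, with the lowest sum and a scaling factor of 0.615, against 0.927 to 1.26 for the other 5 libraries, and values below are TPM divided by these factors (scaled TPM) unless called deposited. Of the mesophyll markers CA1, RBCS1A and RCA, which encode a carbonic anhydrase, a Rubisco small subunit and Rubisco activase, all 3 were well detected and lower at LL36, with a summed scaled TPM of 1151 to 1290 at LL36 and 1698 to 2154 at LL24, and the part of this in the results below was not tested. The sum of 4 root markers, with EXPA7 and COBL9 listed at 0, was 0.981 to 1.21 at LL36 and 1.32 to 1.89 at LL24. That of 3 guard cell markers was 0.109 to 0.129 at LL36 and 0.177 to 0.339 at LL24. That of 2 phloem markers was 0.264 to 0.419 and 0.440 to 0.813, and that of 2 epidermis markers 1.35 to 1.78 and 2.14 to 2.62. These low sums were thus also lower at LL36 without overlap, although IRT1, MYB60 and ATML1 overlapped as single genes. AtGRP7 itself had 207.4, 255.8 and 229.4 scaled TPM at LL36 and 2.96, 2.77 and 3.53 at LL24.

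All 10 genes passed the limit of a mean deposited TPM of 5 for testing. None did so through 1 time point alone, since the lowest deposited TPM of any of them in any library was 7.38, for PSAH-2. PSAG, a subunit with a pair of membrane spans on the side of PSI where the antenna docks, was far above the rest. Its mean deposited TPM ranked 10 among all listed genes at LL36 and 18 at LL24, and PSAH-2 ranked 349 at LL36 and 204 at LL24. Mean levels over the 6 libraries ran from 15.9 scaled TPM for PSAH-2 to 283.6 for PSAG, a range of 17.8-fold between subunits of 1 complex.

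**Figure D1:**
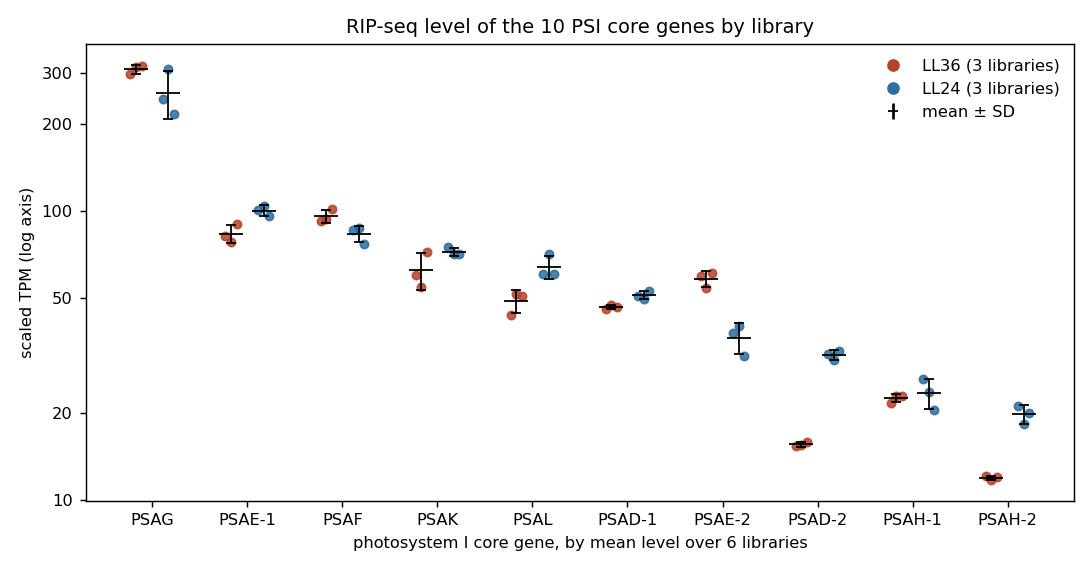
Scaled TPM (log axis) of the 10 PSI core genes in each of 3 LL36 and 3 LL24 libraries; points are libraries and black bars are the mean ± SD. PSAG lies above all other genes in every library, and the LL36 libraries of PSAD-2 and PSAH-2 lie well below the LL24 libraries.

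PSAG, PSAK and PSAH-2 held the same place in the order of levels at both time points, and the other genes changed places. At LL36 the genes ranked PSAG, PSAF, PSAE-1, PSAK, PSAE-2, PSAL, PSAD-1, PSAH-1, PSAD-2 and PSAH-2, and the libraries of neighbours overlapped for PSAK and PSAE-2 and for PSAL and PSAD-1. At LL24 the order was PSAG, PSAE-1, PSAF, PSAK, PSAL, PSAD-1, PSAE-2, PSAD-2, PSAH-1 and PSAH-2, and neighbours overlapped for PSAK and PSAL, for PSAE-2 and PSAD-2 and for PSAH-1 and PSAH-2. For these neighbours the ranges of the 3 libraries overlapped, although within each library PSAK was above PSAE-2 at LL36 (log2 ratio 0.012 to 0.24) and PSAH-1 above PSAH-2 at LL24 (0.037 to 0.37).

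Comparing LL36 with LL24 asked whether the signal of the PSI core transcripts differs between the time points. Subjective time of day and hours in continuous light changed together, so their parts cannot be told apart. Of the 10 genes, 1 was called higher at LL36, PSAE-2, and 4 were called lower, PSAD-2, PSAH-2, PSAL and PSAE-1. Across all 789 tested genes, 19.9% were called higher and 24.1% lower by the same limma fit at an adjusted p below 0.05. The LL36 and LL24 libraries did not overlap for 7 of the 10 genes, against 57.3% of all tested genes. The median log2 difference of the 10 genes was -0.17, and that of all tested genes was 0.02. A log2 difference of a single gene is LL36 minus LL24 on the log2(scaled TPM + 1) scale, with its standard error (SE) where given, whereas differences of sums and of paralogue ratios were taken without a pseudocount.

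The counts depended on how the libraries were scaled. With the deposited TPM, 0 PSI core genes were called higher and 2 lower, and across all genes 25 were called higher and 101 lower, against 157 and 190 after scaling. With rescaling after the 10 highest genes were left out, 2 were called higher, PSAE-2 and PSAF, and 2 lower, and across all genes 230 higher and 154 lower. The median of all genes was -0.26 with the deposited TPM and 0.12 with that rescaling. The median of the PSI core genes relative to it was -0.21 and -0.20, against -0.19 in the main fit. Other alternatives moved this relative median more, from -0.23 without LL36 replicate 3 to -0.13 without LL36 replicate 2 and -0.047 with no limit on TPM. PSAD-2 and PSAH-2 were lower at LL36 past the threshold under all 17 alternatives run, and PSAE-2 was higher past it under 16, the exception being the deposited TPM.

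**Figure D2:**
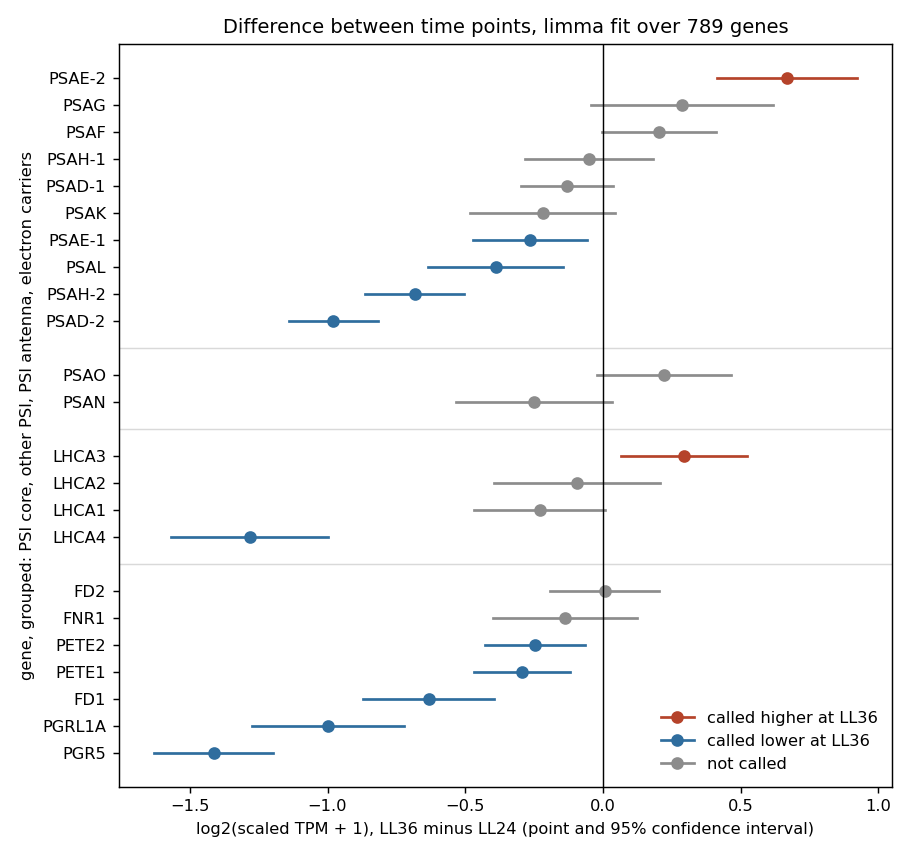
Log2 difference, LL36 minus LL24, with its 95% confidence interval from the limma fit, for the PSI core genes and the tested genes of other PSI subunits, the PSI antenna and the electron carriers at PSI; colours mark genes called at an adjusted p below 0.05. PSAE-2 is the highest of the core genes at 0.67 and PSAD-2 the lowest at -0.98.

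On the stromal side, PSAD forms the docking site for ferredoxin, and its 2 genes differed in size of change. PSAD-2 fell to 15.4, 15.6 and 16.0 scaled TPM at LL36, against 32.2, 30.5 and 32.8 at LL24. The groups did not overlap, and the LL36 mean was 0.492 times the LL24 mean (log2 difference -0.98, SE 0.07, limma adjusted p = 2.7e-05). PSAD-1 had 45.8, 47.5 and 46.7 scaled TPM at LL36 and 51.0, 49.6 and 52.9 at LL24. The LL36 libraries were all just below the LL24 libraries, yet the difference of -0.13 (SE 0.07) did not pass the threshold (limma adjusted p = 0.181), and as deposited the libraries overlapped.

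PSAE, which sits beside PSAD and helps ferredoxin to be reduced, had genes with opposite signs. PSAE-2 had 59.8, 54.2 and 61.1 scaled TPM at LL36 and 37.9, 40.1 and 31.4 at LL24. All LL36 libraries were above all LL24 libraries, and the mean was 1.60 times as high (log2 difference 0.67, SE 0.11, limma adjusted p = 0.00219). As deposited, the TPM of LL36 replicate 3 was 37.5, within the LL24 range of 37.1 to 44.3. PSAE-1 had 82.4, 78.3 and 90.3 scaled TPM at LL36 and 101.1, 104.5 and 96.2 at LL24. It was lower at LL36 without overlap, at a log2 difference of -0.26 (SE 0.09, limma adjusted p = 0.0446), a call near the threshold that was lost under 11 of 17 alternatives, among them the removal of LL24 replicate 1 or 2 (adjusted p = 0.0939 and 0.115) and of LL36 replicate 1 or 2 (0.128 and 0.151).

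On the lumenal side, PSAF binds plastocyanin, the electron donor. Its transcript had 92.6, 94.3 and 101.8 scaled TPM at LL36 and 85.8, 87.3 and 77.2 at LL24. The groups did not overlap, but the difference of 0.20 (SE 0.09) was not called (limma adjusted p = 0.101), and it was -0.09 with the deposited TPM. PSAN, a lumenal subunit that also takes part in electron transfer from plastocyanin and is not among the 10 genes, had 30.4, 26.7 and 29.4 scaled TPM at LL36 and 41.2, 31.7 and 31.2 at LL24, a difference of -0.25 (SE 0.12, limma adjusted p = 0.132).

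PSAG and PSAK lie on the side of the complex that carries the light-harvesting antenna, and neither was called. PSAG had 297.9, 315.2 and 318.0 scaled TPM at LL36 and 243.7, 310.3 and 216.7 at LL24. Only LL24 replicate 2 reached into the LL36 range, and the difference was 0.29 (SE 0.14, limma adjusted p = 0.139). Without that library PSAG was called higher at LL36 (0.43, limma adjusted p = 0.0292), and with the deposited TPM the difference was -0.01. PSAK had 60.3, 54.7 and 72.4 scaled TPM at LL36 and 75.2, 71.1 and 70.9 at LL24. Here LL36 replicate 3 alone lay in the LL24 range, and the difference of -0.22 (SE 0.11, limma adjusted p = 0.153) became -0.33 without it (limma adjusted p = 0.0320).

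PSAH and PSAL form the side of PSI to which the mobile light-harvesting complex of photosystem II docks during state transitions. PSAH-2 had 12.1, 11.8 and 12.0 scaled TPM at LL36, against 21.2, 18.3 and 20.03 at LL24. The groups were far apart, with an LL36 mean 0.603 times the LL24 mean (log2 difference -0.68, SE 0.08, limma adjusted p = 0.000317). PSAH-1 had 21.8, 23.0 and 22.9 scaled TPM at LL36 and 26.3, 23.7 and 20.5 at LL24. The LL36 libraries of PSAH-1 lay inside the LL24 range (-0.05, SE 0.10, limma adjusted p = 0.702), and the sign turned to 0.05 with rescaling without the 10 highest genes and to 0.02 without LL24 replicate 1.

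PSAL, which holds PSAH in place, had 43.7, 51.9 and 50.9 scaled TPM at LL36 and 60.9, 71.1 and 60.7 at LL24. It was lower at LL36 without overlap, with a mean 0.760 times the LL24 mean (log2 difference -0.39, SE 0.10, limma adjusted p = 0.0210). The call was lost without LL24 replicate 2 (-0.32, adjusted p = 0.0623) and without LL36 replicate 1 (-0.30, adjusted p = 0.0843), and under 8 of 17 alternatives in all. PSAO, a further subunit of that side and not among the 10 genes, had 89.1, 83.2 and 104.3 scaled TPM at LL36 and 82.1, 75.6 and 78.1 at LL24, a difference of 0.22 (SE 0.10, limma adjusted p = 0.121).

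Leaving out LL36 replicate 3, the library that stood apart, gave 1 gene called higher and 5 lower, PSAK being added, against 124 higher and 183 lower of the 834 genes tested in that fit. The differences of the other called genes were then 0.64 for PSAE-2, -0.998 for PSAD-2, -0.69 for PSAH-2, -0.42 for PSAL and -0.32 for PSAE-1. Without LL24 replicate 2, 2 were higher and 2 lower, against 109 and 151 of all 804 genes tested. Without LL36 replicate 1, 1 was higher and 2 lower, against 111 and 151 of 790.

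The ratio of a pair of paralogues within a library does not depend on the scaling of the libraries. PSAD-1 over PSAD-2 was 2.98, 3.05 and 2.93 at LL36 and 1.59, 1.63 and 1.61 at LL24. The ratio hardly varied within a time point, and the shift was 0.89 on the log2 scale, or 1.85-fold. PSAE-1 over PSAE-2 moved the other way, with ratios of 1.38, 1.44 and 1.48 at LL36 and 2.67, 2.61 and 3.06 at LL24, a log2 shift of -0.95 or 0.517-fold. PSAH-1 over PSAH-2 was 1.79, 1.96 and 1.90 at LL36 and 1.24, 1.29 and 1.03 at LL24, a log2 shift of 0.68 or 1.60-fold.

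In all 3 pairs the LL36 and LL24 ratios did not overlap. How often ratios of other gene pairs do so was not computed, and the libraries of 57.3% of single tested genes did not overlap. Each shift had p = 0.1 (exact permutation test, two-sided, 3 against 3 libraries; adjusted p = 0.1 over 3 pairs), the smallest p this design allows, so no shift could pass a threshold of 0.05. Without LL36 replicate 3 the log2 shifts were 0.90 for PSAD, -0.97 for PSAE and 0.67 for PSAH. In each pair the gene numbered 1 was above the gene numbered 2 in 6 of 6 libraries, with a mean log2 ratio of 1.13 for PSAD, 0.99 for PSAE and 0.58 for PSAH (exact sign-flip permutation test over 6 libraries, two-sided, p = 0.0312 and adjusted p = 0.0312 over 3 pairs for each, the smallest p possible). The level and shift of PSAH-1 over PSAH-2 carry the overlap of PSAH-1 with AT3G16130 described above. Those of PSAE-1 over PSAE-2 carry the overlap of PSAE-1 with AT4G28755.

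**Figure D3:**
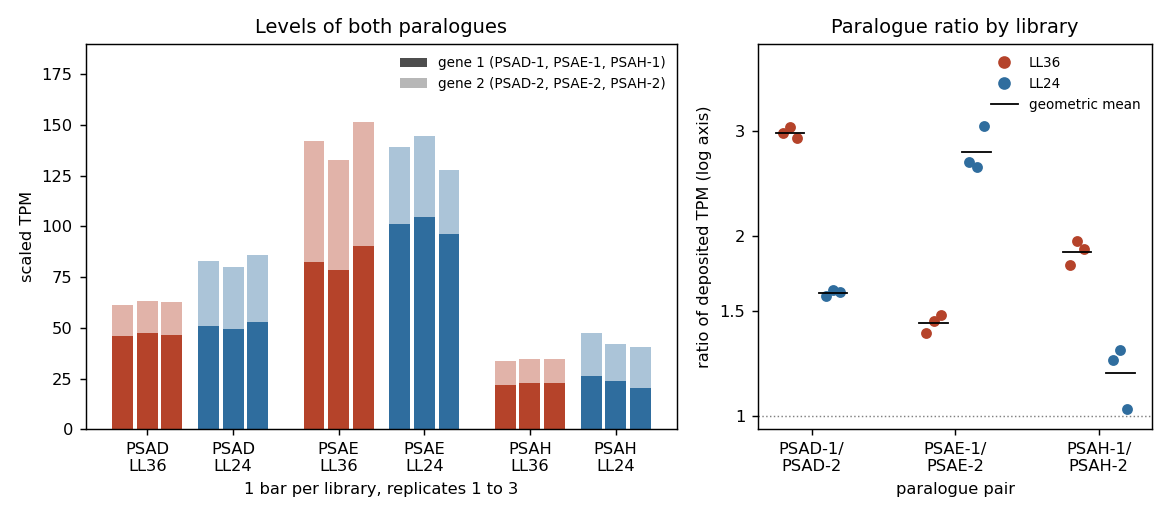
Left, scaled TPM of both paralogues of PSAD, PSAE and PSAH stacked, 1 bar per library (solid, gene 1; pale, gene 2; red, LL36; blue, LL24). Right, ratio of gene 1 to gene 2 in each library (log axis; lines, geometric means): PSAD and PSAH ratios are higher at LL36 and PSAE ratios lower, without overlap.

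With both genes of a subunit added up, a choice made after the values were seen, the PSAE sums of the time points overlapped. The PSAE sum was 142.2, 132.6 and 151.4 scaled TPM at LL36 and 139.0, 144.6 and 127.7 at LL24 (exact permutation test, two-sided, p = 0.6), and the log2 difference of 0.05 turned to -0.25 with the deposited TPM. The PSAD sum was 61.2, 63.1 and 62.7 at LL36 and 83.2, 80.1 and 85.7 at LL24. The PSAH sum was 33.9, 34.8 and 34.9 at LL36 and 47.5, 42.0 and 40.6 at LL24. The PSAD and PSAH sums were lower at LL36 in every library, at 0.751 and 0.796 times the LL24 mean (p = 0.1 each by the same exact test, its smallest value).

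The summed level of all 10 genes was 731.7, 746.5 and 792.1 scaled TPM at LL36 and 735.2, 806.5 and 679.5 at LL24. The libraries overlapped, with means of 756.8 ± 31.5 at LL36 and 740.4 ± 63.7 at LL24 (SD, n = 3 each; exact permutation test on log2 sums, two-sided, p = 0.9). The log2 difference of 0.03 changed sign to -0.27 with the deposited TPM, and to -0.12 when PSAG was left out (exact permutation p = 0.5 and 0.2).

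PSAG weighed most in this sum. It took 40.7%, 42.2% and 40.2% of the summed TPM of the 10 genes at LL36 and 33.1%, 38.5% and 31.9% at LL24. PSAE-2 took 7.72% ± 0.454 at LL36 and 4.92% ± 0.268 at LL24, and PSAF 12.7% ± 0.124 and 11.3% ± 0.428 (SD, n = 3 each). These 3 shares were higher at LL36 without overlap, as a description with no test, since shares of 1 sum move against each other. The shares of PSAE-1, PSAL, PSAD-2 and PSAH-2 were lower without overlap, PSAD-2 with 2.07% ± 0.0466 at LL36 and 4.33% ± 0.527 at LL24. Those of PSAK, PSAD-1 and PSAH-1 overlapped.

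**Figure D4:**
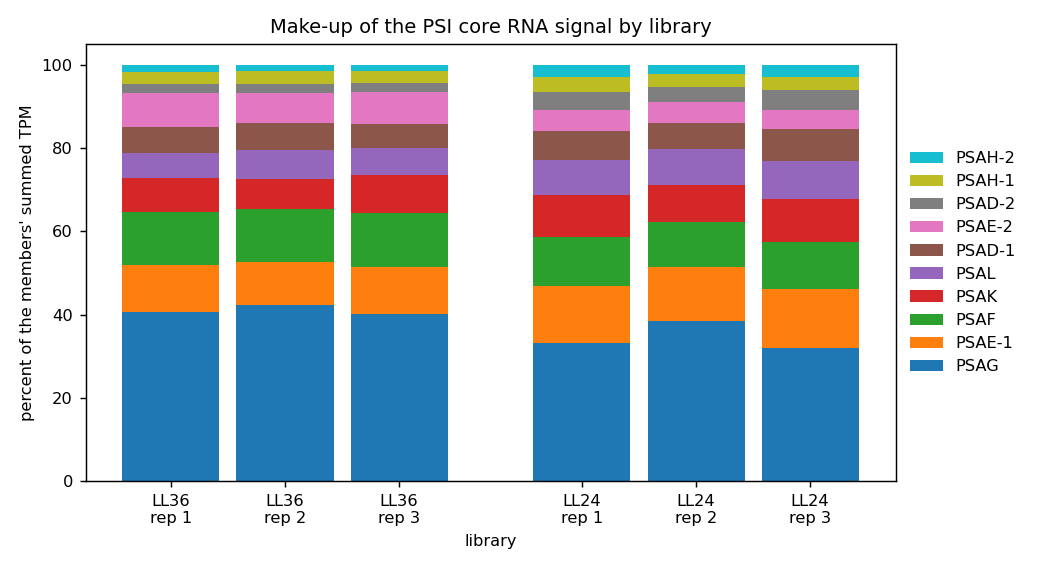
Percent of the summed TPM of the 10 PSI core genes taken by each gene, 1 stacked bar per library. PSAG is the lowest segment, at 40.2% to 42.2% in the LL36 libraries and 31.9% to 38.5% in the LL24 libraries.

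Of the tested genes that work with the PSI core, LHCA3 was the only one called higher in the main fit, and the others were lower or not called. The antenna genes LHCA1 to LHCA6 encode the light-harvesting proteins bound to PSI, and 4 of 6 passed the limit. LHCA4 was lower, with 131.2, 128.5 and 150.01 scaled TPM at LL36 and 379.8, 326.1 and 297.5 at LL24 (-1.28, SE 0.12, limma adjusted p = 0.000121). LHCA3 was higher (0.30, adjusted p = 0.0429), a call lost with the deposited TPM and on the full-sum scale. LHCA1 (-0.23) and LHCA2 (-0.09) were not called, and LHCA5 and LHCA6 were below the limit, with means of 4.00 and 3.59 scaled TPM at LL36 and 4.67 and 4.51 at LL24. The median of the 4 tested antenna genes was -0.16.

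Among the electron carriers at PSI, 7 of 9 were tested, 5 were lower and 0 higher, and the median was -0.29. By mean level, the highest were PETE2 (-0.25, SE 0.08, limma adjusted p = 0.0359), a plastocyanin, FD2 (0.01, adjusted p = 0.952) and FD1 (-0.63, SE 0.10, adjusted p = 0.00209), both ferredoxins. FD1 had 14.3, 13.98 and 16.9 scaled TPM at LL36 and 22.9, 26.3 and 22.4 at LL24. Of the ferredoxin genes, the one with the lower TPM was thus lower at LL36. The LL36 and LL24 libraries of the one with the higher TPM overlapped. The other 3 called genes, chosen for naming after their values were seen, were PETE1, PGRL1A and PGR5. The PGR5 protein, which acts with PGRL1 in cyclic electron flow around PSI, had a transcript at -1.41. With the deposited TPM, the full-sum scale or the rescaling without the 10 highest genes, 3 carriers were called lower. The carriers below the limit, FNR2 and PGRL1B, were not tested and were also named after their values were seen. FNR2, at a mean deposited TPM of 4.70, was higher at LL36 without overlap. It had 6.07, 5.87 and 4.93 scaled TPM at LL36 and 4.12, 3.39 and 3.33 at LL24. The PGRL1B libraries of the time points overlapped.

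Of 6 PSI assembly factors 1 was tested, PSA2, which was lower (-0.45, SE 0.09, limma adjusted p = 0.00639), a call lost with the deposited TPM and on the full-sum scale. Neither of the state transition enzymes, the kinase STN7 and the phosphatase TAP38, passed the limit. Of 14 subunits of photosystem II, 13 were tested, 5 were lower and 0 higher, and the median was -0.07. The number lower was 1 with the deposited TPM and 2 on the full-sum scale, and 1 was higher with rescaling without the 10 highest genes. The 3 of highest mean level, PSBR (0.09), PSBX (-0.28) and PSBTN (0.10), were not called.

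The mean profile of the 10 genes over the 6 libraries, on the centred log2(scaled TPM + 1) scale, varied little, running from -0.11 to -0.01 at LL36 and from -0.0002 to 0.13 at LL24. Of the 779 other tested genes, those with the smallest Euclidean distance from it were LIL3:2 (0.058), CIB22 (0.095), AT5G11770 (0.109), FSD1 (0.111) and PDX1.1 (0.124), and none was called. The nearest of the 10 genes was PSAE-1, at 0.160, and 15 other genes were closer. PSAE-2 and PSAD-2 were the farthest, at 1.03 and 1.02, with 638 and 636 other genes closer.

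The U/C-rich motif CTTCT was searched in the sense strand of the transcripts (as DNA letters; CTTCTTC contains it). It was present in 8 of the 10 transcripts, against 90% of 27444 protein-coding genes, and was absent from PSAE-2 and PSAK. PSAH-1 had 10 copies, 9 of them in its 3′ UTR of 683 nt, whereas PSAH-2 had 4, all in the coding region, and a 3′ UTR of 160 nt. The longer CTTCTTC was present in 3 of 10, PSAE-1, PSAG and PSAH-1, against 47.7% of all protein-coding genes. A pair of its coding copies is shown with the motif in capitals. Of these, 1 is in a gene that was lower at LL36 and the other in the gene of highest TPM among the 10, which was not called.
PSAE-1: tccggcttcctCTTCTTCaaaagattctcc
PSAG: ggccgtttcgtCTTCTTCaacttccagaga

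Copy numbers overlapped between the called genes and the others. The gene called higher, PSAE-2, had no CTTCT, and of the 4 called lower PSAL had 6 copies, PSAH-2 had 4, and PSAD-2 and PSAE-1 had 1 each. Of those not called, PSAD-1, PSAF and PSAG had 4 copies each, PSAH-1 had 10 and PSAK had 0. A match is a description of the letters and not a binding site.

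The gene models differ in structure as well as in level. In TAIR10.1, PSAD-1 (chromosome 4, 1229031 to 1230164, minus strand), PSAD-2 (chromosome 1, 753307 to 754262, minus) and PSAG (chromosome 1, 20802670 to 20803449, minus) had 1 exon. PSAF (chromosome 1, 11214676 to 11216141, minus) and PSAL (chromosome 4, 7521257 to 7522761, plus) had 2. PSAE-1 (chromosome 4, 14202758 to 14204061, minus), PSAE-2 (chromosome 2, 8736734 to 8737767, plus), PSAH-1 (chromosome 3, 5467987 to 5469594, minus), PSAH-2 (chromosome 1, 19454798 to 19455668, plus) and PSAK (chromosome 1, 10722183 to 10723247, plus) had 3. The 2 genes of each pair had the same number of exons and lay on different chromosomes. Transcripts ran from 607 nt for PSAE-2 to 1300 nt for PSAH-1.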

How the data were processed

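The authors trimmed the reads, aligned them with STAR 2.5.2a, estimated abundances on the atRTD transcripts by Salmon 0.8.2 and added them up by gene. They deposited TPM per gene and library, and the paper states that rRNA, mitochondrial and chloroplast genes were excluded. No ID of the mitochondrial or chloroplast genome was listed, and whether all rRNA was absent was not checked. A single listed gene had a mean of 89538 TPM, beside listed sums of 95948 to 165739 TPM per library. The full-sum scale therefore rests in large part on that gene. TAIR10 is named in the submitters' processing notes. The sources used here do not give whether quantification used strand. Reads were single-end, 100 nt. A further 6 columns of the table, headed Col-2, the name of the wild type in the study, matched no sample label and were used in no step.

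Each library was divided by a trimmed-mean scaling factor (30% of ratios and 5% of abundances trimmed), and genes of mean deposited TPM of 5 or more (789) were fitted as log2(scaled TPM + 1) with limma 3.58.1 (lmFit; eBayes with trend; R 4.3.3). LL36 was compared with LL24, two-sided, with Benjamini-Hochberg adjustment over all 789 genes and a threshold of 0.05. The code was tested on simulated data. Summed levels and paralogue ratios were compared with exact permutation tests (SciPy). The time point was the only term. Labels call the libraries biological replicates and do not say what was pooled, whereas the paper states that several plants were bulked for each sample.

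The members and gene lists were chosen with earlier results of these data known. Named genes were all members, PSAN, PSAO, LHCA1 to LHCA6, AtGRP7, up to 3 of highest mean TPM per other list, and the 5 nearest profiles. PETE1, PGRL1A, PGR5, FNR2 and PGRL1B were named in addition, after their values were seen. Overlapping genes and cell type markers were named where a limit turned on them. Gene models, names and sequences came from RefSeq TAIR10.1, by gene ID (32811 of 33331 matched, with all 10 members); its coordinates are those of TAIR10.1 and no coordinates came from the table. Alternatives were other scalings, pseudocounts and limits, no trend, a replicate block and leaving out each library; the full-sum scale sets the listed TPM to sum to 1000000.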

Additional observations from a re-analysis of the deposited data

How the results depend on the processing

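Of 170 values of single members under 17 alternatives, 141 kept their direction and side of the threshold, 20 lost the call, 3 gained one and 6 changed sign. The sign changes were PSAF (-0.094) and PSAG (-0.013) with the deposited TPM, and PSAH-1 with rescaling without the 10 highest genes (0.047), with full-sum and trimmed-mean scaling (0.0029), with no limit (0.073) and without LL24 replicate 1 (0.017; -0.15 to 0.017 over the leave-outs). None of these values was called. With the deposited TPM, 0 members were called higher and 2 lower, and with rescaling without the 10 highest genes 2 and 2. On the full-sum scale, with full-sum and trimmed-mean scaling (added after the data were seen), with a limit of TPM 1 and with no limit, 1 member was called higher, PSAE-2, and 2 lower, PSAD-2 and PSAH-2. More genes were tested in those fits, 2807 to 22084. Across all genes, in that order, 233 of 3774, 626 of 3774, 486 of 2807 and 894 of 22084 were called higher. The numbers called lower were 505, 740, 597 and 1157. Leaving out a library gave 1 to 2 members called higher and 2 to 5 lower, with 32.3% to 40.5% of all tested genes called. The median of the members was -0.47 with the deposited TPM, -0.078 with rescaling without the 10 highest genes, -0.047 with no limit, and between -0.23 and -0.12 with a library left out. The summed level (0.03) changed sign with the deposited TPM (-0.27), the full-sum scale (-0.0022), without PSAG (-0.12) and without LL24 replicate 3 (-0.026), within -0.026 to 0.098 over the leave-outs. The PSAE sum was -0.25 with the deposited TPM. Mean log2 ratios of the paralogues with a library left out were 1.04 to 1.22 for PSAD, 0.87 to 1.10 for PSAE and 0.50 to 0.68 for PSAH, and p was then 0.0625, the smallest that 5 libraries allow. Log2 shifts with a library left out were 0.88 to 0.90, -0.995 to -0.88 and 0.57 to 0.74.

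Same-numbered libraries correlated at 0.15, -0.08 and -0.21 in their deviations from the group means, and libraries of different numbers at -0.22 to 0.23. These values showed no pairing by number, but so few libraries cannot exclude one. With a replicate block, 1 member was called higher and 3 lower, against 127 higher and 171 lower of all 789 genes. PSAE-1 lost its call (limma adjusted p = 0.101) and the median stayed at -0.17. The log2 shifts of 0.89, -0.95 and 0.68 then had an exact sign-flip p of 0.25, the smallest that 3 pairs allow.

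TPM holds no depth, so the limits set by counting could not be computed, and with 3 libraries a time point a difference near the median standard error of 0.10 is not detectable.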
